A study of Mus musculus with 16 samples.

Results

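The genes described are 10 that take iron into the cell, move it, store it, release it or sense it, read on 16 one-colour Agilent arrays of differentiating mouse embryonic stem (ES) cells. The members were Tfrc, Tfr2, Steap3, Slc11a2, Slc25a37, Slc25a38, Fth1, Slc40a1, Ireb2 and Aco1, which are 10 of the 37203 genes on the array, and all 10 passed the minimum intensity set for testing. They were chosen by name from their known roles, with earlier results of these data known. Each was read from its brightest probe after the target accession of each probe was matched to a mouse gene symbol. Cells that were wild type for the transcription factor Sp1 (Sp1+/+, titled E14) were compared with cells carrying 2 mutant copies (Sp1-/-) that leave a truncated Sp1 with no DNA-binding domain. The labels give the strain of both as C57BL/6, no group received a drug, and the mutant is a single ES cell line. Flk1+ cells, which contain the hemangioblast, were separated from embryoid bodies on magnetic columns. The other populations were sorted from blast cultures of Flk1+ cells, namely hemogenic endothelium of the first stage (HE1, KIT+ Tie2+ CD41-) and of the second stage (HE2, KIT+ Tie2+ CD41+) and blood progenitors (KIT+ Tie2- CD41+). The embryoid body and blast media differed in serum and ascorbic acid, and the blast medium also held VEGF, an interleukin and conditioned medium. Both media held added human transferrin. From Flk1+ cells to HE1 the medium thus changed along with the stage, and these cannot be told apart. Each of the 8 groups had 2 arrays.

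Iron bound to transferrin enters a cell through the transferrin receptor, is reduced and leaves the endosome, and is then used in mitochondria, stored in ferritin or exported through ferroportin. Cells that make hemoglobin need far more iron than other cells, because each heme group is built around an iron atom in the mitochondrion, and transferrin receptor, endosomal reductase and mitoferrin are known as abundant products of the red cell lineage. The iron regulatory proteins bind hairpins in the messages for the receptor, ferritin and ferroportin and so tune uptake and storage to the iron that is free in the cell.

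Sp1 binds GC boxes, whose core is GGGCGG, so the sequence before the annotated start sites of the members was read on both strands. The RefSeq promoter table for GRCm38.p6 held 7 of the 10 members, with 14 start sites, and did not list Slc25a37, Slc11a2 and Slc40a1. The 250 bases before the first start of Slc25a38 (chr9:120110132-120110381, plus strand) and of Tfrc (chr16:32608646-32608895, plus strand) are shown because both genes were higher in Sp1-/- progenitors, and hold no GGGCGG and no GATAA, the core of the site for GATA factors. The first start of Tfr2 (chr5:137569590-137569839, plus strand) is from another gene that was higher. That of Aco1 (chr4:40143015-40143264, plus strand) is from a gene that was not called in any population. Tfrc has another start, not shown, with 1 GGGCGG before it. Capitals mark GGGCGG or its reverse complement CCGCCC.
Slc25a38: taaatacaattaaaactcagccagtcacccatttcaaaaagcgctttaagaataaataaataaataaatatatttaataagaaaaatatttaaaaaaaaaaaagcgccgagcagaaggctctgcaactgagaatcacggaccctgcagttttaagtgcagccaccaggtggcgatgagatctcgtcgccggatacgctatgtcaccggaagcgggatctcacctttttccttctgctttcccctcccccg
Tfrc: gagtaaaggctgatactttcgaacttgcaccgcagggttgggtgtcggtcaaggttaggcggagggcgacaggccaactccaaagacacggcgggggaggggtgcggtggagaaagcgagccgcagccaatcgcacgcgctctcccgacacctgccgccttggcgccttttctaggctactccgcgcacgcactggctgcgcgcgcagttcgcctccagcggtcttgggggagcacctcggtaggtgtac
Tfr2: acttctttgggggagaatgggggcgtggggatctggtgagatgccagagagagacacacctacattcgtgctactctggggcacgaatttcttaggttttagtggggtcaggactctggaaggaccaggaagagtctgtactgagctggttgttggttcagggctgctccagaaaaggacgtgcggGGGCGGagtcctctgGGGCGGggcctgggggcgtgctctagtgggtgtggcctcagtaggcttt
Aco1: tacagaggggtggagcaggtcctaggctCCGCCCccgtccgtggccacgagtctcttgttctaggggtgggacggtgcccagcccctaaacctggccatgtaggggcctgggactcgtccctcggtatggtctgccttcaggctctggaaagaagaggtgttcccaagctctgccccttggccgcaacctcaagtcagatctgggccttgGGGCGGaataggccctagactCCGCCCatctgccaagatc

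GGGCGG lay in 7 of the 14 member windows and in 32.7% of all 32851 mouse promoter windows of 250 bases. Steap3 gave 4 of the 14 windows and Tfr2 gave 3, and the 2 windows of Tfrc overlap. By first start site alone, 3 of the 7 members had a GGGCGG. Among genes called higher in Sp1-/- progenitors, Tfrc had 1 match at start site 2, 35 bases before it. Steap3 had 1 match at start site 2 and 3 at start site 3. Fth1, not called for Sp1 loss, had 3 at start site 2. The first window of Aco1 held 3 matches and that of Ireb2 2, although neither gene was called for Sp1 loss. The first window of Tfr2 held 2 matches, at 64 and 49 bases before the start, and its other 2 windows held none. GATAA lay in 4 member windows and in 22.6% of all windows. The third start of Tfr2 had GATAA matches at 60 and 27 bases before it, and the first and the third start of Steap3 had 1 each. The first start of Fth1, a gene not called for Sp1 loss, also had 1, at 175 bases. The looser CACCC-box pattern CCNCNCCC, which can overlap GGGCGG, lay in 12 of 14 member windows and in 45.9% of all. By first start site alone, GATAA lay in 2 and CCNCNCCC in 6 of the 7 members. These are matches of letters in a short window and show nothing about binding.

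The arrays were of like quality, with 67.0% to 77.1% of spots well above background and no saturated spot. The Sp1 probe read 4.84- to 9.71-fold lower in the Sp1-/- arrays of the 4 populations, and whether it lies in the deleted stretch was not determined. Every member probe was well above background on all 16 arrays. Each genotype was hybridised on a slide of its own, 2 slides in all, and in every effect of Sp1 loss given here the slide cannot be told apart from the genotype. The series and the study's text describe biological replicates, while a legend of the study speaks of technical ones, so the p-values measure only the spread between these arrays, which may be technical. Of the surface proteins used for sorting, Kdr (Flk1) read 13.56 to 15.37 on a log2 scale in all 16 arrays, the later populations included, and Itga2b (CD41) already read 10.60 to 11.43 in HE1. Tek (Tie2) ran from 11.65 to 12.50 in HE1 and from 7.62 to 9.62 in progenitors. Kit, whose product marks all 3 sorted later populations, read 13.21 and 12.89 in Sp1+/+ progenitors and 11.62 and 12.02 in Sp1-/- progenitors and was called lower. Ptprc (CD45) read 8.31 and 9.02 beside 9.70 and 10.19 there and was called higher, as it was in HE2.

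**Figure D1:**
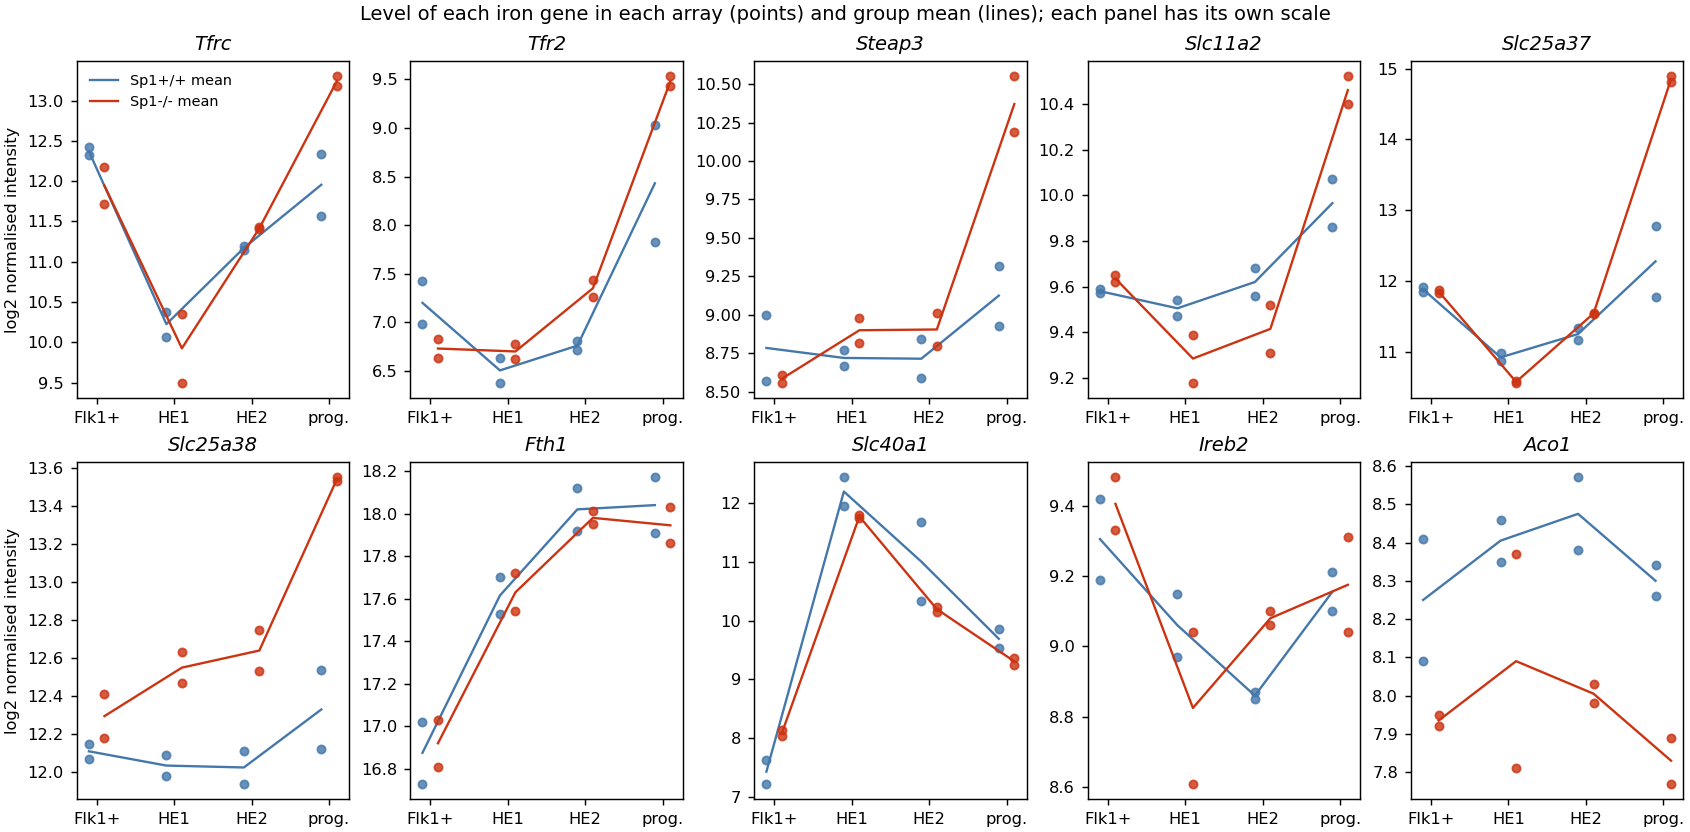
Log2 normalised intensity (vertical axis) of each of the 10 genes in Flk1+ cells, HE1, HE2 and progenitors (prog., horizontal axis). Points are single arrays, 2 per group, lines join the group means, Sp1+/+ is blue and Sp1-/- red, and each panel has its own scale. Tfrc and Slc25a37 dip in HE1, Slc40a1 peaks there, and in progenitors the red points of Slc25a37 (14.81 and 14.89) lie above the blue ones (11.78 and 12.78).

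Sp1 loss was called for 5 of the 10 members in progenitors and for none in Flk1+ cells, HE1 or HE2. A gene was called when its difference had an unadjusted p of at most 0.01 in limma, as in the methods of the study, and was at least 2-fold. Tfrc, Tfr2, Steap3, Slc25a37 and Slc25a38 rose in Sp1-/- progenitors by 2.07- to 5.94-fold. Of all 37149 genes tested, 4.1% were called in progenitors, and 1.5% were called higher. The share of all genes called was 1.65% for Flk1+ cells, 2.11% for HE1 and 1.95% for HE2, where limma called 0 of 10 members. Members with an unadjusted limma p under 0.05 numbered 0 in Flk1+ cells, 1 in HE1 (Slc25a38) and 3 in HE2 (Slc25a38, Aco1 and Slc40a1). In progenitors they numbered 7, of which 6 were higher. The share of all genes under that limit was not counted. The median log2 difference over the 10 members in progenitors was 0.77, beside 0.02 over all genes. At an adjusted p of at most 0.05 with any fold, 6 members passed in progenitors, all higher, beside 13.1% of all genes (6.18% higher). By that rule Slc25a38 alone passed in HE1 (9.84% of all genes) and in HE2 (5.68%), and 0 members passed in Flk1+ cells (6.98%). In these bulk samples a change in the share of cells of a type cannot be told apart from a change in RNA per cell.

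Tfrc encodes the transferrin receptor that brings iron into most cells. The Sp1+/+ arrays of Flk1+ cells read 12.32 and 12.42 on the log2 scale, those of HE1 10.07 and 10.38, those of HE2 11.20 and 11.14, and those of progenitors 11.57 and 12.34. The Sp1-/- arrays read 11.71 and 12.18, 10.35 and 9.50, 11.43 and 11.40, and 13.18 and 13.30 in the same order. Both genotypes had their lowest values in HE1. Of the Sp1+/+ progenitor arrays, 1 lay within the Sp1+/+ Flk1+ values and the other below them. The Sp1-/- progenitor arrays stood above every other array of either genotype. The message fell 4.42-fold from Flk1+ cells to HE1 in Sp1+/+ cells (log2 fold change -2.14 ± 0.28, SE, adjusted p 0.000184) and 4.06-fold in Sp1-/- cells (-2.02 ± 0.28, adjusted p 0.000259). The rise from HE1 to HE2 was called in Sp1-/- cells (2.82-fold, adjusted p 0.00372), as was the next one to progenitors (3.54-fold, adjusted p 0.00152). In Sp1+/+ cells the same steps were 1.92-fold (adjusted p 0.0605) and 1.73-fold (adjusted p 0.203) and were not called, although the scanner's processed signal called the first (1.06, p 0.006) and leaving out the first Sp1+/+ progenitor array called the second (1.17, p 0.00283), both by limma. Sp1-/- progenitors exceeded Sp1+/+ progenitors 2.44-fold (1.28 ± 0.28, adjusted p 0.0121), while the differences in the earlier populations, in order, were -0.43, -0.31 and 0.25 and not called. Without the first Sp1+/+ progenitor array the progenitor difference was 0.90 (limma p 0.0132) and was not called. The other 2 probes of Tfrc gave 1.17 and 1.51 in progenitors.

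Tfr2 encodes the second transferrin receptor, made in liver and in red cell precursors, where it associates with the erythropoietin receptor. It read 6.38 to 7.44 on the log2 scale in all arrays of the 3 earlier populations. The scanner's processed signal called an effect of Sp1 loss in HE2 (1.76, beside 0.59 in the deposited values) and a decrease from Flk1+ cells to HE1 in Sp1+/+ cells (-2.13, beside -0.69). In progenitors Tfr2 reached 7.83 and 9.03 in Sp1+/+ cells and 9.53 and 9.43 in Sp1-/- cells. The 2 Sp1+/+ progenitor arrays thus lay further apart than the higher of them lay from the Sp1-/- arrays. The step from HE2 to progenitors was called in both genotypes, at 3.18-fold in Sp1+/+ cells (adjusted p 0.0123) and 4.38-fold in Sp1-/- cells (adjusted p 0.000723). The Sp1+/+ step was 1.67 on the log2 scale, 1.07 without the second Sp1+/+ progenitor array, 2.27 without the first and 3.24 with the processed signal, and it was not called when only the arrays compared were fitted (limma p 0.0112). The difference between genotypes in progenitors was 2.07-fold (1.05 ± 0.30, adjusted p 0.0388). It fell to 0.45 without the first Sp1+/+ progenitor array, and was not called there or when either Sp1-/- progenitor array was left out, nor when the scanner's processed signal was used (1.36) or the 4 progenitor arrays were fitted alone.

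Steap3 encodes the reductase that converts iron in the endosome of red cell precursors to the form the transporter carries. Its log2 level stayed between 8.56 and 9.01 in all 12 arrays of Flk1+ cells, HE1 and HE2, and no step between these populations was called. Sp1+/+ progenitors read 8.93 and 9.32, and Sp1-/- progenitors 10.55 and 10.19. The genotypes did not overlap in progenitors and differed 2.37-fold (1.24 ± 0.18, adjusted p 0.000977). Steap3 rose 2.76-fold from HE2 to progenitors in Sp1-/- cells (adjusted p 0.00033), and changed by 0.41 ± 0.18 in Sp1+/+ cells (adjusted p 0.314). Its second probe gave 1.35 for Sp1 loss in progenitors.

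Slc11a2 encodes DMT1, the transporter that moves reduced iron out of the endosome. Its values spanned little, from 9.18 to 9.68 on the log2 scale in the 3 earlier populations. They were 9.86 and 10.07 in Sp1+/+ progenitors and 10.52 and 10.40 in Sp1-/- progenitors. The groups did not overlap in progenitors, and the difference was 1.41-fold (0.50 ± 0.11, adjusted p 0.0121), under the 2-fold limit. The rise from HE2 to progenitors was 2.06-fold in Sp1-/- cells (adjusted p 0.000128) and called, beside 1.27-fold in Sp1+/+ cells (adjusted p 0.143). The Sp1-/- rise was 0.94 on the log2 scale, under 2-fold, with both probes averaged, also 0.94 without the second Sp1-/- HE2 array, and 0.99 without the first Sp1-/- progenitor array. The SE of the Slc11a2 differences, 0.11, was the smallest of the 10 members.

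Slc25a37 encodes mitoferrin 1, the carrier that imports iron into the mitochondria of red cell precursors. Among Sp1+/+ arrays, Flk1+ cells read 11.85 and 11.92, HE1 read 10.98 and 10.87, HE2 read 11.34 and 11.17, and progenitors read 11.78 and 12.78. The Sp1-/- values were 11.83 and 11.88, 10.59 and 10.57, 11.55 and 11.54, and 14.81 and 14.89 in the same order. The genotypes were within 0.35 of each other on average until HE2 and then parted, with no overlap in progenitors. The difference in progenitors was 5.94-fold (2.57 ± 0.23, adjusted p 4.46e-05), the largest among the 10 members in any population. Slc25a37 rose 9.88-fold from HE2 to progenitors in Sp1-/- cells (3.30 ± 0.23, adjusted p 1.92e-05) and 2.03-fold in Sp1+/+ cells (1.02 ± 0.23, adjusted p 0.0391). The Sp1+/+ rise became 0.52 without the second Sp1+/+ progenitor array and 0.94 without the second Sp1+/+ HE2 array, and was called in neither case. It was 0.70 with both probes averaged and 0.95 with the scanner's processed signal, again not called. Nor was it called when only the arrays compared were fitted (limma p 0.0348). From Flk1+ cells to HE1 the gene fell 2.42-fold in Sp1-/- cells (adjusted p 0.00143), and the 1.95-fold decrease in Sp1+/+ cells (adjusted p 0.00909) was just under the 2-fold limit. With both probes averaged the Sp1-/- decrease was -0.87 and not called, and without the first Sp1+/+ HE1 array the Sp1+/+ decrease was -1.01 and called. The second probe gave 1.95 for Sp1 loss in progenitors.

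Slc25a38 encodes another carrier of the mitochondrial inner membrane, which is needed for the glycine that enters heme. The Sp1+/+ arrays ran between 11.94 and 12.15 up to HE2 and read 12.12 and 12.54 in progenitors. Without Sp1, Flk1+ arrays read 12.41 and 12.18, HE1 arrays 12.63 and 12.47, HE2 arrays 12.53 and 12.75, and progenitor arrays 13.53 and 13.55. No Sp1-/- array overlapped the Sp1+/+ arrays of its population, in any of the 4 populations. The difference in Flk1+ cells was 0.18 ± 0.14 (adjusted p 0.553). HE1 gave 0.52 (adjusted p 0.045) and HE2 0.61 (adjusted p 0.0291), both under 2-fold. Progenitors gave 1.21 (2.31-fold, adjusted p 0.000274), the only one of the 4 populations in which it was called. In Sp1-/- cells the rise from HE2 to progenitors was 1.87-fold (adjusted p 0.0017).

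**Figure D2:**
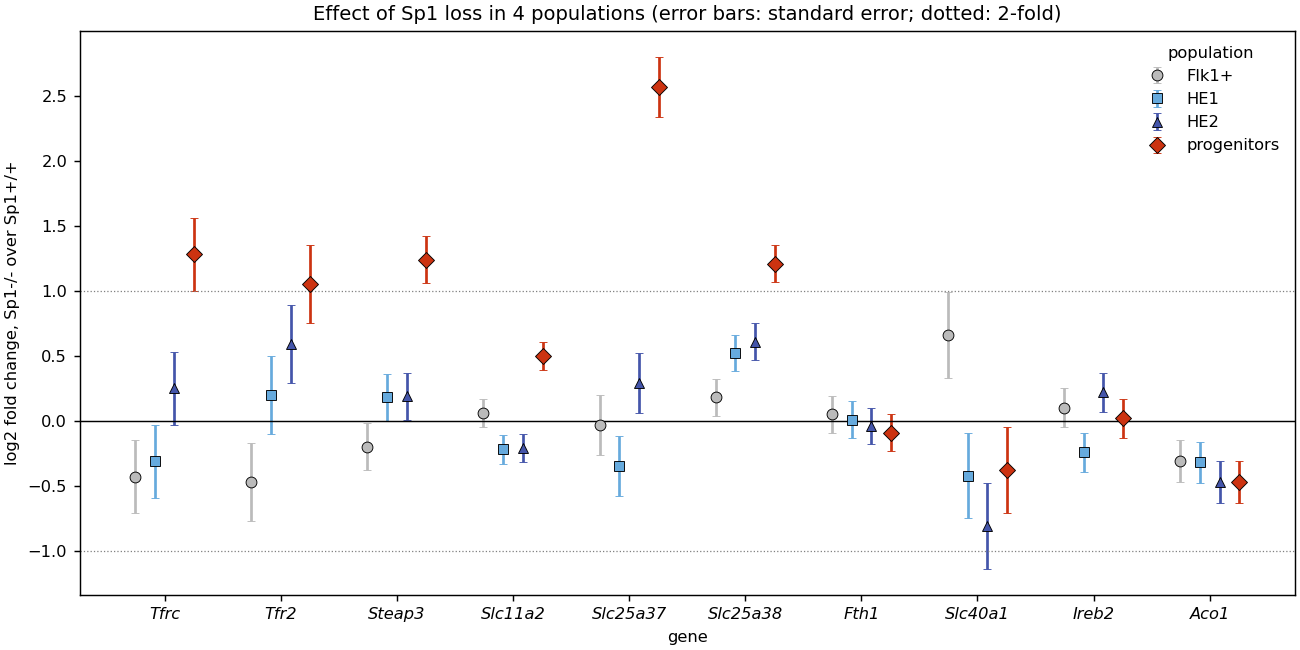
Log2 fold change of Sp1-/- over Sp1+/+ (vertical axis) for each of the 10 genes (horizontal axis) in 4 populations, marked by shape and colour. Bars are standard errors from the fit to 16 arrays, and dotted lines mark 2-fold. The progenitor points of Tfrc, Tfr2, Steap3, Slc25a37 and Slc25a38 lie above the upper line, with Slc25a37 at 2.57, and those of Fth1 and Ireb2 lie at -0.09 and 0.02.

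Fth1 encodes the heavy chain of ferritin, which oxidises iron for storage. It read 16.73 and 17.02 in Sp1+/+ Flk1+ cells and 16.81 and 17.03 in Sp1-/- Flk1+ cells. In progenitors the values were 17.91 and 18.17, and 17.86 and 18.03. The genotypes overlapped in each of the 4 populations, and the differences ran from -0.09 to 0.05. The 95% confidence intervals of these differences lay between -0.40 and 0.35. From Flk1+ cells to HE1 the message was 1.67-fold higher in Sp1+/+ cells (adjusted p 0.00218) and 1.64-fold higher in Sp1-/- cells (adjusted p 0.00258), below the 2-fold limit. The values of HE2 and progenitors overlapped in both genotypes.

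Slc40a1 encodes ferroportin, the exporter of iron from the cell. Sp1+/+ Flk1+ cells read 7.22 and 7.63, HE1 read 11.96 and 12.44, HE2 read 10.33 and 11.68, and progenitors read 9.85 and 9.53. The Sp1-/- values were 8.13 and 8.04, 11.80 and 11.75, 10.15 and 10.24, and 9.36 and 9.25 in the same order. In both genotypes the order was HE1, HE2, progenitors and Flk1+ cells from high to low, with no overlap between neighbours. The rise from Flk1+ cells to HE1 was 27.4-fold in Sp1+/+ cells (4.77 ± 0.33, adjusted p 2.24e-06) and 12.9-fold in Sp1-/- cells (3.69 ± 0.33, adjusted p 1.14e-05), the largest change of any member. Slc40a1 then fell 2.29-fold to HE2 in Sp1+/+ cells (adjusted p 0.0441) and 2.99-fold in Sp1-/- cells (adjusted p 0.00688). A further decrease to progenitors was 2.49-fold in Sp1+/+ cells (adjusted p 0.0655, called by the unadjusted p) and 1.85-fold in Sp1-/- cells (adjusted p 0.103, not called). The Sp1+/+ HE2 arrays lay far apart (SD 0.95), and without the first of them the change to HE2 was -0.52 and no longer called. Without the second, the change from HE2 to progenitors was -0.64 and not called. Sp1 loss gave 0.66 in Flk1+ cells and -0.42, -0.81 and -0.38 in HE1, HE2 and progenitors, none called. In HE2 the difference was -1.49 and called without the first Sp1+/+ array, and in Flk1+ cells it was 1.16 and called with the scanner's processed signal.

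Ireb2 and Aco1 encode the iron regulatory proteins, of which Aco1 is also the cytosolic aconitase. Ireb2 read from 8.61 to 9.48 over the 16 arrays. Its genotype differences were 0.10, -0.24, 0.22 and 0.02 from Flk1+ cells to progenitors, and their 95% confidence intervals lay between -0.56 and 0.54. Aco1 read 8.09 to 8.57 in the 8 Sp1+/+ arrays and 7.77 to 8.37 in the 8 Sp1-/- arrays. Its differences were -0.31, -0.32, -0.47 and -0.47 (SE 0.16), below 0 in all 4 populations, with adjusted p from 0.0895 to 0.327. The Sp1-/- arrays lay below the Sp1+/+ ones without overlap in Flk1+ cells, HE2 and progenitors, and overlapped them in HE1. Over all members, the arrays of the genotypes did not overlap for 6 of 10 in Flk1+ cells (51.6% of all genes). For HE1 the count was 5 (45%), for HE2 8 (45.4%) and for progenitors 8 (62.5%).

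Along differentiation, 2 members were called at the first step, Flk1+ cells to HE1, in Sp1+/+ cells (8.55% of all genes). At the second step, HE1 to HE2, 1 was called (3.31%), and at the last, HE2 to progenitors, 3 (1.74%). In Sp1-/- cells the counts were 3 (9.49% of all genes), 2 (5.6%) and 5 (5%). The 5 members that rose from HE2 to progenitors in Sp1-/- cells (2.33% of all genes) were Tfrc, Tfr2, Steap3, Slc11a2 and Slc25a37, while in Sp1+/+ cells Tfr2 and Slc25a37 rose and Slc40a1 fell. Whether these steps differed between genotypes was not tested. At the first step the culture medium changed along with the stage.

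**Figure D3:**
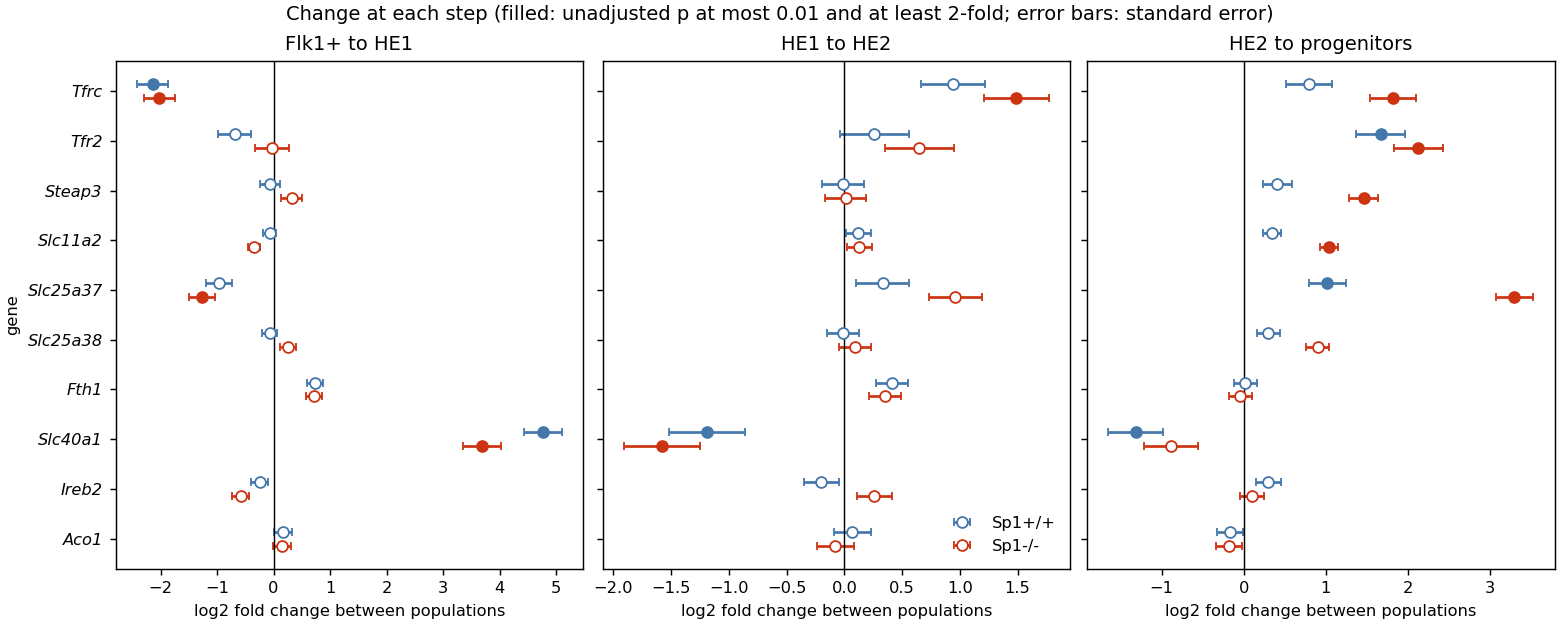
Log2 fold change (horizontal axis) of each gene (vertical axis) at the 3 steps of differentiation in Sp1+/+ (blue) and Sp1-/- (red) cells, with standard errors. Filled points had an unadjusted p of at most 0.01 and at least 2-fold, and the horizontal scales differ. Slc40a1 stands at 4.77 and 3.69 at the first step, and Slc25a37 at 1.02 and 3.30 at the last.

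The effect of Sp1 loss in progenitors was set against that in Flk1+ cells as an interaction. The difference was called for 5 members, all higher in progenitors, beside 3.81% of all genes and 1.45% called higher. They were Slc25a37 (2.60 ± 0.32, adjusted p 0.0015), Tfrc (1.71 ± 0.40, adjusted p 0.0336), Tfr2 (1.52 ± 0.42, adjusted p 0.0648), Steap3 (1.45 ± 0.25, adjusted p 0.00928) and Slc25a38 (1.02 ± 0.20, adjusted p 0.0156). Slc40a1 was the lowest of the 4 members with a negative value (-1.04 ± 0.47, adjusted p 0.278) and was not called. The same 4 progenitor arrays enter this contrast and the effect in progenitors, so the counts are not independent. Without the first Sp1+/+ progenitor array, 3 members remained called in each, since Tfrc (0.90) and Tfr2 (0.45) were lost from the effect in progenitors and Tfr2 (0.92) and Slc25a38 (0.81) from the interaction. Without the second, 5 were called in the effect in progenitors.

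Markers of red cells and of other cell types were read on the same arrays. Of a list of 12 erythroid markers, 11 were tested, and 6 were called higher in Sp1-/- progenitors, among them Klf1, Epor, Alas2 and Epb42, where 1.5% of all genes were called higher. The mean log2 level of the 11 was 12.19 and 13.54 in the Sp1+/+ progenitor arrays and 15.00 and 15.04 in the Sp1-/- ones, and all 11 were well above background in these arrays. The first Sp1+/+ progenitor array, low for the markers, was also the lower of its pair for 9 of the 10 members, all but Slc40a1. The gaps ran from 8.26 beside 8.34 for Aco1 to 7.83 beside 9.03 for Tfr2. The share of all genes lower on that array was not counted. HE2 had marker means of 11.08 and 9.90 in Sp1+/+ and 11.87 and 11.84 in Sp1-/- cells, while those of HE1 were 10.29 and 7.76 beside 8.87 and 8.86. The first Sp1+/+ HE1 array, high for the markers, read below the second for Tfrc (10.07 beside 10.38) and Tfr2 (6.38 beside 6.63). It read above the second for Slc25a37 (10.98 beside 10.87), Slc25a38 (12.09 beside 11.98) and Steap3 (8.77 beside 8.67). Flk1+ cells had means of 7.81 to 8.40. Tfrc and Slc25a37 were higher in every Flk1+ array than in any HE1 array. Sp1-/- progenitors also had 4 of 6 megakaryocyte markers (mean level 11.86 to 12.14 beside 10.76 to 11.05) and 2 of 7 tested macrophage markers (9.52 to 9.55 beside 9.02 to 9.04) called higher, and 5 of 8 mesenchymal markers lower (7.94 to 8.00 beside 9.88 to 10.36), where 4.1% of all genes were called in either direction. Of undifferentiated ES cell markers, limma called 0 of 5 there, with 1 at an unadjusted p under 0.05. The part of these shifts in cell markers in the differences of the iron genes was not tested.

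**Figure D4:**
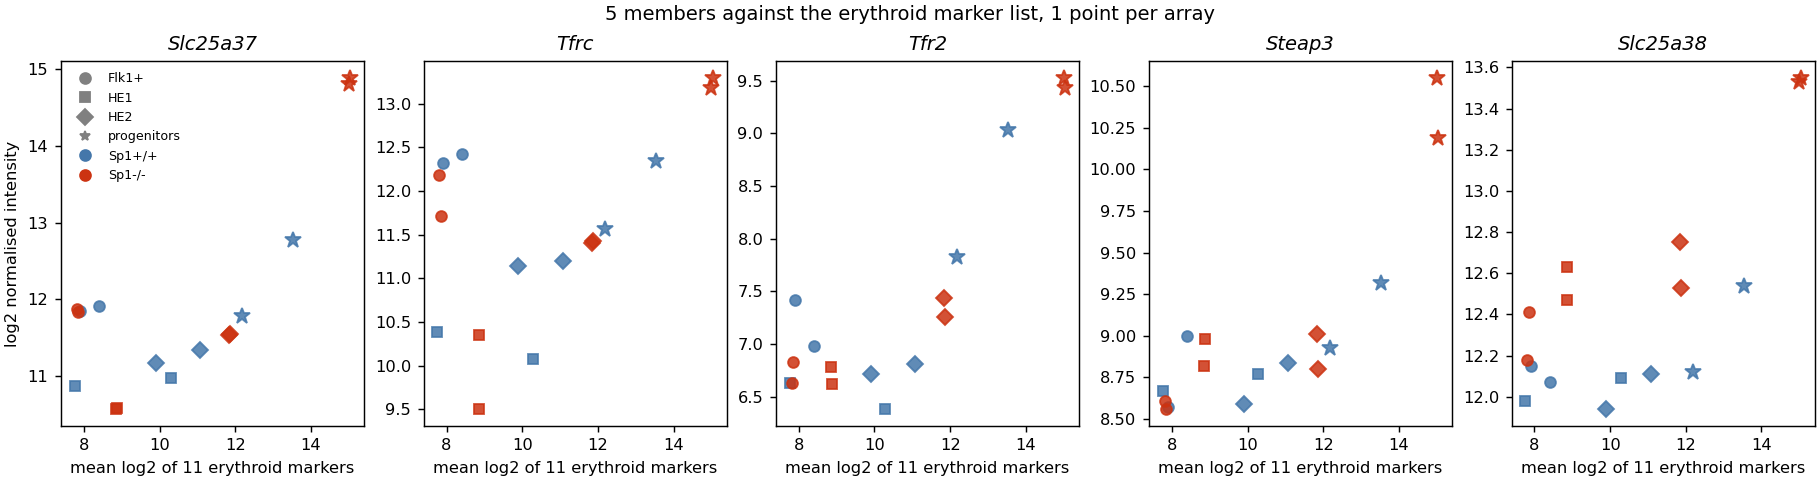
Log2 normalised intensity of the 5 members that were higher in Sp1-/- progenitors (vertical axes) against the mean log2 intensity of 11 erythroid markers (horizontal axes). Each point is 1 of 16 arrays, colour gives the genotype and shape the population. The Sp1-/- progenitor arrays lie at the upper right (marker means 15.00 and 15.04), the Sp1+/+ progenitor arrays at 12.19 and 13.54, and the Flk1+ arrays lie high for Tfrc and Slc25a37 at marker means of 7.81 to 8.40.

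Of 55 symbols listed for other iron genes, some of them older symbols, 52 were on the array and tested for Sp1 loss. Flk1+ cells had 1 called and HE1 and HE2 had 2 each, all higher, and progenitors had 2 higher and 1 lower. The shares of all genes called were 1.65%, 2.11%, 1.95% and 4.1% in that order. Heph encodes hephaestin, the copper oxidase that works beside ferroportin. It was higher without Sp1 by 3.84-fold in Flk1+ cells (1.94 ± 0.20, adjusted p 0.000281), 2.94-fold in HE1 and 2.08-fold in HE2, and read 10.73 and 10.23 in Sp1+/+ beside 9.86 and 10.08 in Sp1-/- progenitors. Trf, the gene of transferrin itself, was 2.36-fold higher in HE1 (adjusted p 0.00486) and 2.17-fold higher in HE2 (adjusted p 0.0091). In progenitors Steap2, a relative of Steap3, fell from 10.23 and 9.65 to 6.70 and 7.15, 8.08-fold (adjusted p 1.19e-05). Slc39a8, an importer of zinc, manganese and iron, rose 3.90-fold (adjusted p 0.00393), from 11.28 and 12.43 to 13.72 and 13.92. Abcb10, a mitochondrial transporter that stabilises mitoferrin 1, rose 2.14-fold (adjusted p 0.00821), from 12.71 and 13.36 to 14.16 and 14.11. None of the 5 storage genes was called for Sp1 loss by limma, and 0 had an unadjusted p under 0.05 in any population. None of the 9 tested genes of systemic control was called, and at most 1 in a population had an unadjusted p under 0.05. Of 22 tested mitochondrial and iron-sulfur genes, 1 was called in progenitors. Those with an unadjusted limma p under 0.05 numbered 9, 7, 5 and 8 from Flk1+ cells to progenitors, of which 3, 3, 4 and 8 were higher. Of the 16 uptake and transport genes, 7, 7, 8 and 8 were under it, of which 4, 5, 5 and 4 were higher. The share of all genes under that limit was not counted. By the adjusted p rule, 7 of the 22 were higher and none lower in progenitors. By that rule, 11 of the 52 were higher and 2 lower in progenitors, where 13.1% of all genes passed it and 6.18% passed it as higher.

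For each member the gene with the most similar levels over the 16 arrays was found by Pearson r, as a description. The arrays are pairs of 8 groups on 2 slides, so r mainly reflects the group means. Cpox, an enzyme of heme synthesis, was the closest to both Slc25a37 (r 0.973) and Slc11a2 (r 0.952). Ppp2r1b was closest to Tfrc (0.969), Coro2a to Tfr2 (0.982), Gucd1 to Slc25a38 (0.952) and Tgif2lx1 to Steap3 (0.978). Slc40a1 was closest to Tnfaip8l1 (0.989) and Fth1 to Irak1 (0.976). The closest genes of Ireb2 and Aco1 had lower r, Morc3 at 0.916 and Slc25a40 at 0.901.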

How the data were processed

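RNA of sorted populations was labelled with Cy3 and hybridised to Agilent 8x60K mouse arrays. The authors extracted intensities with Feature Extraction (10.7.1.1 in the labels, 10.7.3.1 in the file headers) and deposited, per array, scanner intensity values and a table of log2 values. The Supplementary Methods state limma normexp background correction with an offset of 16 and quantile normalisation. The deposited log2 values instead matched an offset of 50 to within 0.005, while 16 differed by up to 1.63, and the offset shrinks differences of dim probes.

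The deposited log2 values were used. Control and outlier spots were left out, spots of a probe averaged, and the brightest probe per gene (highest mean over arrays) kept if it reached log2 6 on an array. This left 37149 of 37203 genes, 20122 with a symbol through RefSeq accessions. Accessions not matched to a symbol were tested under the accession. The 8 groups were fitted in 1 model with limma 3.58.1 in R 4.3.3, without a replicate block, and p-values were Benjamini-Hochberg adjusted over all genes. The SD behind each group rests on 2 arrays, and the number of arrays limits precision. The fit was tested on simulated data.

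Named were all members, other iron genes called for Sp1 loss, and the gene most similar to each member. Markers called in progenitors were named after their values were seen, and some are not reported by name here. The members and gene lists were chosen with earlier results of these data known. In the gene lists, older symbols not on the array went untested. The labels do not say that a replicate number marks a shared culture, and the data did not show such pairing throughout (correlation of deviations -0.174 to 0.503 over 28 pairs of groups, 11 above 0.1). Alternatives covered background correction, scaling, filter, probe choice, thresholds, the arrays in the fit, a replicate block and each array left out.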

Additional observations from a re-analysis of the deposited data

Results flagged for a closer look

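The effect of Sp1 loss differed between progenitors and Flk1+ cells for 5 members by the interaction term of the limma fit. The difference was 2.60 on the log2 scale for Slc25a37, 1.71 for Tfrc, 1.52 for Tfr2, 1.45 for Steap3 and 1.02 for Slc25a38, each larger in progenitors. For Tfr2 the adjusted p was 0.0648, and the call was lost when the first Sp1+/+ progenitor array, the first Sp1+/+ Flk1+ array, the first Sp1-/- progenitor array or the second Sp1-/- Flk1+ array was left out (0.92 to 1.47). For Slc25a38 the value fell under 2-fold without the first Sp1+/+ progenitor array (0.81), the first Sp1+/+ Flk1+ array (0.99) or the second Sp1-/- Flk1+ array (0.91).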

How the results depend on the processing

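Each count and each member difference was recomputed under 11 other settings and with each of the 16 arrays left out, where a lone array was assumed to vary like the other groups. No called difference of a member changed sign. The counts of members called for Sp1 loss were 0, 0, 0 and 5 from Flk1+ cells to progenitors. With the scanner's processed signal, set to each array's 75th percentile, 1 member was called in Flk1+ cells (Slc40a1, 1.16) and 1 in HE2 (Tfr2, 1.76), and Tfr2 was not called in progenitors (1.36). That setting uses no offset of 50, moved the median of all genes in HE1 from 0.01 to 0.128, and raised the share of called genes that were higher from 46.2% to 61.7% in HE1 and from 39.4% to 52.4% in HE2. An adjusted p of at most 0.05 with any fold called 1 member in HE1 and 1 in HE2. With only the arrays compared in each fit, which leaves fewer arrays to estimate the spread, 2 of the 6 step changes in Sp1+/+ cells were called, and Tfr2 was not called in progenitors (p 0.0373). With arrays left out, the count of members was 0 throughout in Flk1+ cells (0 to 0) and HE1 (0 to 0), while HE2 gave 0 to 1 and progenitors 3 to 5. They ranged over 4 to 7 for the steps in Sp1+/+ cells, 9 to 10 for those in Sp1-/- cells and 3 to 6 for the interaction. The interaction count was 3 without the first Sp1+/+ progenitor, the first Sp1+/+ Flk1+ or the second Sp1-/- Flk1+ array. With the first or the second Sp1+/+ HE2 array left out, Slc40a1 was added as lower at an unchanged -1.04. Those arrays enter only the estimate of the spread in that contrast. Slc40a1 was also called lower in the interaction with the processed signal (-1.63) and with only the arrays compared (-1.04). The replicate block gave 5 members in progenitors and 5 for the interaction and changed no call of a member. Slc25a37 in progenitors ranged from 2.07 to 3.07 and was called throughout, as were Slc25a38 (1.00 to 1.42) and Steap3 (1.05 to 1.53). Over all genes, the calls in Flk1+ cells, HE1, HE2 and progenitors numbered 612, 783, 725 and 1523. They numbered 1049, 1582, 1409 and 2507 with the processed signal, and 2592, 3654, 2109 and 4871 with the adjusted p alone. Leaving out the first Sp1-/- HE1 array gave 1739 in HE1, and leaving out the first Sp1+/+ Flk1+ array gave 933 in Flk1+ cells. The minimum of log2 6 removed few genes because the offset lifts dim probes.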

Other observations

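Of the 52 other iron genes tested, 6 rose and 1 fell from Flk1+ cells to HE1 in Sp1+/+ cells, where 8.55% of all genes were called. In Sp1-/- cells 5 rose and none fell by the 2-fold rule, where 9.49% were called. At an adjusted p of at most 0.05, 11 were higher and 6 lower in Sp1+/+ cells, and 13 higher and 6 lower in Sp1-/- cells. Genes named here were chosen after their values were seen. Trf rose 4.87-fold in Sp1+/+ and 7.44-fold in Sp1-/- cells, and Steap2 rose 10.1-fold and 10.8-fold. Heph rose 3.71-fold and 2.84-fold, in the step at which Slc40a1 rose. Hfe, whose product binds the transferrin receptor, rose 3.67-fold and 3.81-fold. Bmp6, a signal for hepcidin in the liver, rose 16.6-fold and 11-fold. From HE1 to HE2, 4 of the 52 fell in each genotype, beside none that rose in Sp1+/+ and 2 that rose in Sp1-/- cells, where 3.31% and 5.6% of all genes were called. At an adjusted p of at most 0.05, 8 were higher and 4 lower in Sp1+/+ cells, and 14 higher and 8 lower in Sp1-/- cells. The shares of all genes given for either step are those of the 2-fold rule. The shares at the adjusted p are not given here, so the counts by that rule stand without them.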
